A study of Mus musculus with 32 samples.

Results

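The enzymes and regulators of sterol and fatty acid synthesis were followed across 4 mouse macrophage lines and 16 groups of arrays. The list holds 32 genes, and a gene was taken where a probe set of the array's annotation names it alone, with the brightest such probe set (highest mean over the 32 arrays) standing for the gene. This gave 31 of the 32, among 19938 genes in all, with Acat2 as the gene without such a probe set. The 31 were read in 6 roles: 6 mevalonate steps, 3 steps to squalene and lanosterol, 8 steps from lanosterol to cholesterol, 5 genes of control and sterol transfer, 4 of acetyl-CoA and palmitate supply, and 5 desaturases and elongases. The 17 genes of the first 3 roles are called sterol enzymes below.

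The lines are labelled WT, Y721F, 3ABY721 and 3AB, each after the prefix M-/-, and each expresses a different form of the receptor for CSF-1, the main macrophage growth factor. Tyr-721 of the receptor is present in WT and 3ABY721 and absent in Y721F and 3AB. The shared culture medium was α-MEM containing 10% newborn calf serum, antibiotics and 120 ng/mL human recombinant CSF-1. In a time course, WT and Y721F cells were starved of CSF-1 overnight and then given it for 0, 20, 60 or 180 min. In a separate steady-state experiment, the 4 lines were starved of CSF-1 or grown in it continuously. Each group has 2 arrays, I and II in the labels, called biological replicates in the design text. Each receptor comes as its own line, so the receptor and other differences between lines cannot be told apart; the sources used here do not give whether a line is 1 clone.

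Cholesterol is built from acetyl-CoA through mevalonate, squalene and lanosterol, and palmitate is built from the same acetyl-CoA and then elongated and desaturated. Most of these enzymes are transcribed under SREBP factors. When endoplasmic reticulum cholesterol is low, Scap escorts SREBP to the Golgi for cleavage, and when it is high, Insig proteins hold Scap back. In macrophages the pathway supplies membrane lipid and is known to be balanced against LXR-driven sterol efflux.

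Replicate arrays correlated at 0.986 or above over all genes, the 12 macrophage markers averaged from 10.07 to 11.81 on the log2 scale over the arrays (10 of 12 above the 75th percentile of genes, Aif1 lowest with a mean of 6.30), and adipocyte, hepatocyte, fibroblast, granulocyte and lymphocyte marker lists averaged between 4.45 and 6.54, with 0 of their genes above the 75th percentile of genes. Csf1r, the receptor's own gene, read between 12.72 and 13.41. It was not alike in all lines. In Y721F minus WT it measured -0.57 grown (limma adjusted p 0.0067, fold 1.48), -0.24 starved (adjusted p 0.173) and -0.245 at 0 min (adjusted p 0.543). In 3AB minus 3ABY721 it measured -0.065 grown and -0.12 starved (adjusted p 0.891 and 0.865). In 2 groups the sterol enzymes differed between the replicate arrays far more than other genes did. In WT grown in CSF-1, all 17 read higher on array II than on array I, by a median of 0.88 on the log2 scale, against a median of 0.01 over all genes. In starved Y721F, 0 of 17 read higher on array II, with a median difference of -0.92 against -0.01 over all genes. At 0 min, 14 of 17 in Y721F read higher on array II, by a median of 0.33. Counts of calls that rest on these arrays are given with each of them left out.

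RefSeq promoters (GRCm38.p6, 250 bases before to 50 after each gene's first start) were listed for 25 of the 32 genes. They are shown because sterol-responsive promoters are known to pair SREBP sites with CCAAT boxes (bound by NF-Y) and GC boxes (bound by Sp1). Each motif was searched as exact letters on both strands. The sterol element TCACNCCAC was found in 1 of the 25, Hmgcs1, and in 1.22% of 27025 genes' promoters. CCAAT was found in 19 of 25 (76%) against 37.9% of all promoters and 38.2% of those of genes on the array. GGGCGG was found in 20 of 25 (80%), against 35.9% and 49.9%. The 5 promoters below belong to genes that rose after CSF-1, and were picked after the values were seen: Hmgcs1 chr13:119690101-119690400 (plus strand), Idi1 chr13:8885356-8885655 (plus strand), Cyp51 chr5:4104648-4104947 (minus strand), Hsd17b7 chr1:169969156-169969455 (minus strand), Fasn chr11:120824498-120824797 (minus strand). Capitals mark CCAAT or its reverse complement ATTGG and, in Hmgcs1, the sterol element, which begins 137 bases before the start. Of the 9 genes called after 180 min of CSF-1 (below), 7 have a listed promoter and all 7 hold CCAAT. Of the 22 others, 17 are listed and 12 hold it. For the 16 genes called higher in grown cells (below), 11 are listed and 10 hold it, and of the 15 others 13 are listed and 9 hold it. A link between the motif and the calls was not tested.
Hmgcs1: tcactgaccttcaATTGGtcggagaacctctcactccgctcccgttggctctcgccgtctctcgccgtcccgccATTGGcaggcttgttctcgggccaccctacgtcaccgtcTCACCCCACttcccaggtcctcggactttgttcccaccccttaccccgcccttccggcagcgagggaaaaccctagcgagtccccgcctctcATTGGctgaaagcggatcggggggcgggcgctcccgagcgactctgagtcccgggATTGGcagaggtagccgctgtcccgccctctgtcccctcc
Idi1: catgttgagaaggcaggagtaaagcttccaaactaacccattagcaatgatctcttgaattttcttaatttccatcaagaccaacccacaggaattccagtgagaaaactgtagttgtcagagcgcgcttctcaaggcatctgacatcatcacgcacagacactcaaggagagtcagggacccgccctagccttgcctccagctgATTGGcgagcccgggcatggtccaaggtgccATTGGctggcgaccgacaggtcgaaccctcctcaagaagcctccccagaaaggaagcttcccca
Cyp51: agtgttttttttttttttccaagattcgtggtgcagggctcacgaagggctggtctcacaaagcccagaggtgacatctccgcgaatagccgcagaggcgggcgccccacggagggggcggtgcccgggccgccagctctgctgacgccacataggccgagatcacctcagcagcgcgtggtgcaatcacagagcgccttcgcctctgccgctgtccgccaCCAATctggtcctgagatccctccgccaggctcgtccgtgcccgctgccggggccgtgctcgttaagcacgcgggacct
Hsd17b7: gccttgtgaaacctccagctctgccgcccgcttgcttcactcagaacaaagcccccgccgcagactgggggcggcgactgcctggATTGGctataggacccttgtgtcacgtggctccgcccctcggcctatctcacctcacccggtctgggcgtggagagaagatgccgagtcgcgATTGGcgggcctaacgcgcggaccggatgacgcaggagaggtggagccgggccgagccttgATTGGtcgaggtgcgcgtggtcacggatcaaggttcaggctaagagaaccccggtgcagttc
Fasn: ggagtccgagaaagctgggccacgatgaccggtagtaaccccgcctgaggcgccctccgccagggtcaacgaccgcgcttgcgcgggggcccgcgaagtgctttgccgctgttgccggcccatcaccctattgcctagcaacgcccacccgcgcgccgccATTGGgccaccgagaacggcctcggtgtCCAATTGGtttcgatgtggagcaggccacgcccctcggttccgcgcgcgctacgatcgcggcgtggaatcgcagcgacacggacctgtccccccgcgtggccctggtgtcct
Hmgcs1 carries 4 CCAAT boxes, Hsd17b7 and Fasn 3 each, Idi1 2 and Cyp51 1; in Fasn a CCAAT and an ATTGG overlap. These are letter matches in a window, not shown sites of binding.

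After 180 min of CSF-1, the largest rises lay in the middle and late steps of cholesterol synthesis, at Cyp51, Sqle and Msmo1. In the mean of the WT and Y721F responses, 9 of the 31 genes rose from 0 min and 0 fell, against 3.03% of all genes called higher and 2.27% lower. A gene is called, here and below, where limma's adjusted p over all genes is under 0.05 and the fold is above 1.5. Of the 9, 8 are sterol enzymes and the other is Fasn. The median difference over the 31 genes was 0.38 on the log2 scale, against -0.01 over all genes, and 22 of 31 were above 0.

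Among the mevalonate steps, Idi1 (isopentenyl diphosphate isomerase) rose by 1.25 (SE 0.25, adjusted p 0.0103) in that mean. Its WT arrays I and II read 8.28 and 8.48 at 0 min, 8.83 and 8.94 at 60 min, and 8.95 and 9.86 at 180 min. Its Y721F arrays read 8.10 and 9.19, then 9.17 and 9.71, then 10.06 and 10.19. Both 180 min arrays lay above both 0 min arrays in each line, while the 0 min arrays of Y721F were themselves far apart. Here and below, how many of all genes separated in this way in the time course was not counted. In single lines of the steady-state experiment, both grown arrays lay above both starved arrays for 19.5% to 26.2% of all genes. Hmgcs1, which makes HMG-CoA, rose by 1.04 (SE 0.24, adjusted p 0.0191), from 8.75 and 9.10 to 9.27 and 10.23 in WT and from 8.86 and 9.88 to 10.80 and 10.46 in Y721F. Fdps, the farnesyl diphosphate synthase, rose by 0.66 (SE 0.16, adjusted p 0.0223); its WT arrays went from 9.26 and 9.21 to 9.80 and 9.88, and its Y721F arrays from 9.03 and 9.86 to 10.09 and 10.24. For both genes the 180 min arrays lay above the 0 min arrays in each line. The kinases Mvk and Pmvk measured -0.08 and 0.12, and the decarboxylase Mvd 0.38 (adjusted p 0.21); none of these was called.

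Sqle, the squalene epoxidase and a known control point of the pathway, rose by 1.68 (SE 0.20, adjusted p 0.00149). In WT it read 9.11 and 9.18 at 0 min, 9.83 and 9.39 at 20 min, 10.60 and 9.96 at 60 min, and 10.81 and 10.95 at 180 min. In Y721F it read 9.05 and 9.95, then 9.86 and 9.96, then 10.35 and 10.43, then 11.33 and 10.93. The 60 and 180 min arrays of both lines lay above every 0 min array of their line. Its neighbours in the pathway had smaller values: Fdft1 (squalene synthase) measured 0.58 (SE 0.14, adjusted p 0.0276), under the fold of 1.5, and Lss (lanosterol synthase) 0.41 (adjusted p 0.0524).

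Of the 8 genes between lanosterol and cholesterol, 4 rose and the other 4 were not called. Cyp51, which removes the first methyl group of lanosterol, rose by 1.72 (SE 0.21, adjusted p 0.00172): WT arrays went from 7.25 and 7.42 to 8.62 and 9.32, and Y721F arrays from 7.50 and 8.53 to 9.97 and 9.66. Msmo1, the methylsterol oxidase that acts on the next methyl groups, rose by 1.60 (SE 0.20, adjusted p 0.00186), from 9.46 and 9.61 to 10.70 and 11.33 in WT and from 9.26 and 10.24 to 11.48 and 11.45 in Y721F. Hsd17b7, the keto-reductase of the same demethylation, rose by 1.24 (SE 0.17, adjusted p 0.00253), from 8.01 and 7.81 to 9.20 and 9.33 in WT and from 8.37 and 8.67 to 9.75 and 9.54 in Y721F. The 0 and 180 min arrays of these 3 genes did not overlap in either line. Sc5d, a sterol desaturase, rose by 0.59 (SE 0.09, adjusted p 0.00332), just past the fold, from 8.69 and 8.65 to 9.05 and 9.37 in WT and from 8.65 and 8.63 to 9.36 and 9.20 in Y721F. Nsdhl, which works between Msmo1 and Hsd17b7 in the demethylation, measured 0.26 (SE 0.09, adjusted p 0.0952); Ebp, the sterol isomerase, -0.07; and the sterol reductase Tm7sf2 -0.09. Dhcr7, a terminal reductase, measured 0.74 (SE 0.25, adjusted p 0.101). Its WT arrays I and II read 8.40 and 7.73 at 0 min and 9.19 and 8.55 at 180 min, and its Y721F arrays 7.60 and 8.03, then 8.42 and 8.54. The 0 and 180 min arrays did not overlap in either line.

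Of the 5 genes of control and sterol transfer, 0 were called. Srebf2, which encodes an SREBP precursor, measured 0.60 (SE 0.18, adjusted p 0.0573), with 9.53 and 10.00 at 0 min and 10.10 and 10.50 at 180 min in WT, and 9.71 and 10.47, then 10.72 and 10.78, in Y721F. The feedback protein gene Insig1 measured 0.48 (adjusted p 0.106), Insig2 -0.19 and Scap -0.10. Stard4, a carrier of sterol between membranes, measured 0.52 (adjusted p 0.0423), under the fold. On the fatty acid side, Fasn, which builds palmitate, rose by 0.81 (SE 0.16, adjusted p 0.00997), from 8.83 on both arrays to 9.57 and 9.80 in WT and from 8.78 and 9.13 to 9.71 and 9.73 in Y721F. Acly, which makes acetyl-CoA from citrate, measured 0.13, and Acaca, the carboxylase before Fasn, 0.11. Acss2, which makes acetyl-CoA from acetate, measured -0.51 (SE 0.15, adjusted p 0.055) and was not called lower; it read 7.21 and 6.74, then 6.49 and 6.69, in WT and 7.51 and 7.17, then 6.70 and 6.71, in Y721F.

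**Figure D1:**
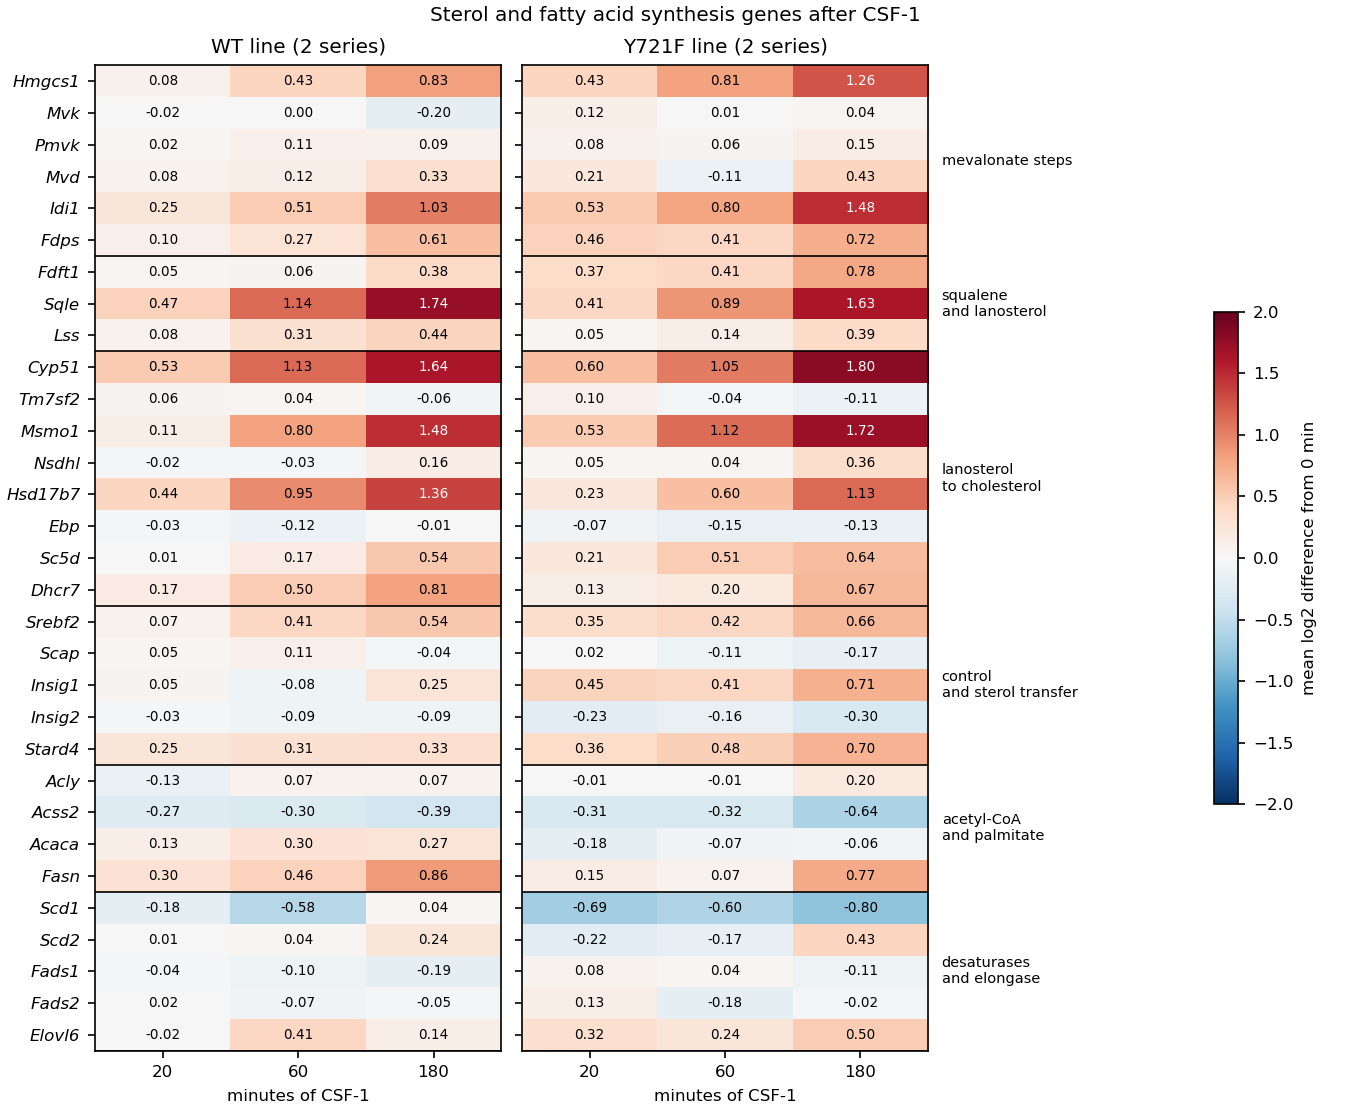
Heat map of the mean log2 difference from 0 min (colour scale and printed numbers) for the 31 measured genes (rows, grouped by role) at 20, 60 and 180 min of CSF-1 (columns) in WT and Y721F, each the mean over series I and II. Cyp51, Sqle and Msmo1 reach 1.48 to 1.80 at 180 min in either line, while Mvk, Tm7sf2, Ebp and Scap stay within 0.20 of 0.

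Arrays with the same number deviated together within each line's time course, so the fit with the number as a block is given where it moves a result. With the block, 11 genes were called in the mean at 180 min (all genes 3.87%), with Dhcr7 (adjusted p 0.000409) and Srebf2 (adjusted p 0.00293) added to the 9. Leaving out 1 of the 8 arrays at a time left between 6 and 12 genes, all higher except without WT 0 min array II, where 8 were higher and Acss2 was lower (-0.63, adjusted p 0.0368). Idi1, Sqle, Cyp51, Msmo1 and Hsd17b7 kept their call in all 8 omissions, Fasn lost it in 1 (without Y721F 0 min array I, adjusted p 0.0523), and Fdps in 7, all but Y721F 0 min array II. Hmgcs1 lost it in 4, without array I at 0 min of either line, WT 180 min array II or Y721F 180 min array I, and Sc5d in 3, without WT 0 min array II, WT 180 min array II or Y721F 180 min array I.

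Taken line by line, with the 0 min arrays shared by a line's comparisons, the calls were fewer. At 180 min 4 genes rose in WT (Sqle 1.74, Cyp51 1.64, Msmo1 1.48, Hsd17b7 1.36) against 1.38% of all genes (0.782% lower), and 9 did with the block (all genes 4.63%), which added Hmgcs1, Idi1, Fdps, Dhcr7 and Fasn. In Y721F 3 rose (Cyp51 1.80, Msmo1 1.72, Sqle 1.63) against 0.171% (0.0903% lower), and 14 did with the block (2.65%). The 14 included Fdft1 (0.78), Srebf2 (0.66), Insig1 (0.71) and Stard4 (0.70), which were not called in WT under either fit; the lines' responses themselves are compared below. The WT count was 0 without either 0 min array or without array II at 180 min, and 3 without array I at 180 min. The Y721F count was 0 without array I at 0 min or either array at 180 min, and 5 without array II at 0 min; it was also 0 when arrays were centred on their medians and 6 when all 32 arrays were fitted together.

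At 60 min limma called 0 of the 31 genes in either line (all genes 0.547% higher and 0.0853% lower in WT, 0.16% and 0.015% in Y721F). At an unadjusted p under 0.05 there were 4 in WT and 8 in Y721F, against 2361 and 1064 of all 19938 genes. With the block, 4 rose in WT (Sqle 1.14, Cyp51 1.13, Hsd17b7 0.95, Msmo1 0.80; all genes 2.76%) and 1 in Y721F (Msmo1 1.12; all genes 0.687%). Without array II at 60 min, 2 were called in WT. At 20 min 0 were called in either line by limma with or without the block (all genes 0.155% higher in WT and 0.0752% in Y721F, and 0.00502% lower in both). Among the 31, 0 had an unadjusted p under 0.05, against 436 of all 19938 genes in WT and 1357 in Y721F. Cyp51 had the highest mean of the 31 at 20 min in both lines, 0.53 in WT and 0.60 in Y721F. Its Y721F mean came from 1.08 in series I and 0.11 in series II, so it was not the highest in each series. In series I of WT, Sqle (0.72) also lay above Cyp51 (0.58).

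In 12 of 31 genes the group mean was higher at each successive time in both lines, against 3.10% of all genes; these were Hmgcs1, Idi1, Fdft1, Sqle, Lss, Cyp51, Msmo1, Hsd17b7, Sc5d, Dhcr7, Srebf2 and Stard4. The series did not share that order at 20 min in Y721F: against the 0 min array of their own number, 16 of the 17 sterol enzymes were above 0 in series I (median 0.50) and 8 in series II (median -0.02). Of the 12 genes, Hmgcs1, Lss, Hsd17b7, Dhcr7 and Srebf2 were below 0 in series II of Y721F at 20 min. In series I of Y721F, Fdft1, Lss, Dhcr7, Srebf2 and Stard4 were lower at 60 than at 20 min. The order also broke in series I of WT. There Fdft1 (-0.08), Lss (-0.02) and Sc5d (-0.09) were below 0 at 20 min, and Fdft1 still at 180 min (-0.03). From 60 to 180 min Lss went from 0.31 to 0.14, Stard4 from 0.21 to 0.04 and Hsd17b7 from 1.28 to 1.19. In series II of WT, Stard4 went from 0.42 at 20 min to 0.41 at 60 min. In series II of Y721F, it went from 0.36 at 60 min to 0.34 at 180 min. No single series of either line thus held the order for Stard4. From 60 to 180 min, limma called 0 of 31 in either line (all genes 0.00502% higher in both, and 0.0201% and 0.0251% lower), and 0 with the block. At an unadjusted p under 0.05 there were 2 in WT and 5 in Y721F, against 1095 and 1364 of all 19938 genes. Msmo1 had the largest further difference in WT, 0.68, and Cyp51 in Y721F, 0.76.

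Of the 5 desaturase and elongase genes 0 were called in the time course. The numbered series stood apart for Scd1, Scd2 and Fads1 in both lines and for Elovl6 in WT. Scd1, the stearoyl-CoA desaturase, read 11.73 on array I and 7.47 on array II of Y721F at 0 min, then 10.69 and 7.13 at 20 min, 10.61 and 7.39 at 60 min, and 9.87 and 7.73 at 180 min. Scd2, its paralogue, read 9.97 and 7.50 at 0 min and 9.91 and 8.42 at 180 min in Y721F, and 7.25 and 5.86, then 7.14 and 6.45, in WT. Series I was the higher at every time in both lines for both genes. Elovl6, which elongates palmitate, also differed by series in WT, with 7.38 on array I and 6.40 on array II at 0 min and 8.23 and 6.37 at 60 min. In the mean at 180 min Scd1 measured -0.38 (95% confidence interval -2.65 to 1.89), Scd2 0.34 (-1.01 to 1.68) and Elovl6 0.32 (-0.65 to 1.29). These intervals come from the fit without the block, where the gap between series counts as error. Each takes in a change of 1.5-fold either way. Within series I and II, Elovl6 changed by 0.32 and -0.05 in WT and by 0.59 and 0.41 in Y721F. Scd1 changed by 0.11 and -0.03, then -1.86 and 0.26, and Scd2 by -0.11 and 0.59, then -0.06 and 0.92. Fads1 and Fads2, the desaturases of polyunsaturated fatty acids, measured -0.15 and -0.03, with intervals from -0.56 to 0.27 and from -0.20 to 0.13. For Fads1, series II was the higher at every time in both lines, with 11.44 and 11.80 at 0 min in WT and 11.36 and 11.85 in Y721F. Within series I and II, Fads1 changed by -0.18 and -0.20 in WT and by -0.04 and -0.17 in Y721F at 180 min.

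The responses of the 2 lines were set against each other directly. The difference of responses, Y721F minus WT, gave 0 calls among the 31 genes at 20, 60 or 180 min by limma, with or without the block. It also gave 0 at an unadjusted p under 0.05. Over all 19938 genes the share called was 0% at each time, and 810, 640 and 277 had such an unadjusted p. At 180 min the widest differences among the 31 were -0.84 for Scd1 and 0.46 for Insig1. At 0 min, before CSF-1, 0 of 31 differed between Y721F and WT (all genes 0.421% higher and 0.306% lower). An unadjusted p under 0.05 was found for 3 of them and for 1921 of all 19938 genes. Scd2 measured 2.18 (adjusted p 0.435), with 7.25 and 5.86 in WT against 9.97 and 7.50 in Y721F; its arrays did not overlap, and the replicates of each line were far apart.

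**Figure D2:**
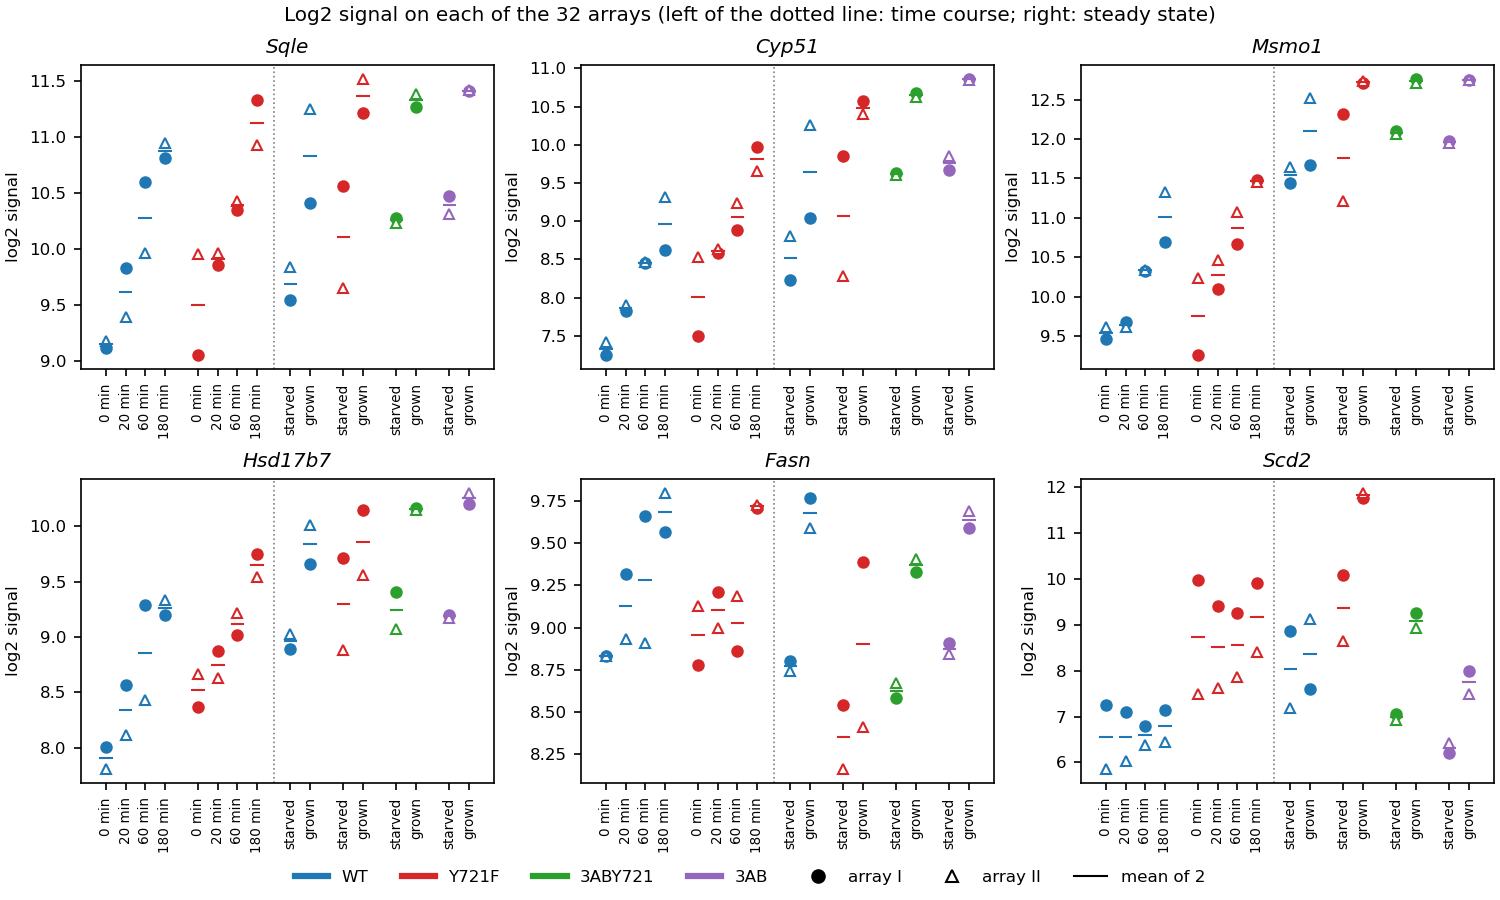
Log2 signal (vertical axes, a separate scale for each gene) of 6 genes on each of the 32 arrays, with filled circles for array I, open triangles for array II and a bar at the mean of 2; colours give the line, and a dotted line separates the time course (left) from the steady-state arrays (right). Sqle, Cyp51, Msmo1 and Hsd17b7 climb from 0 to 180 min in both lines, and Scd2 in grown Y721F, at 11.77 and 11.88, lies above every other array.

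In the steady state, lines grown in CSF-1 carried more mRNA of 12 of the 17 sterol enzymes than starved lines. In the mean of 4 lines, 16 of 31 genes were higher in grown cells and 0 lower, against 2.58% of all genes higher and 1.64% lower. The median over the 31 genes was 0.63 on the log2 scale, against -0.02 over all genes. In RNA of whole cultures, more message per cell and more cells that carry it cannot be told apart. Counts stayed between 13 and 19 when any of the 16 arrays was left out, and were 21, 13, 16 and 15 when WT, Y721F, 3ABY721 or 3AB was left out as a line. Hmgcs1, Fdps and Nsdhl lost their calls without grown WT array II or starved Y721F array II, where 13 genes were left.

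All 6 mevalonate genes had positive means, and 4 were called: Idi1 0.84, Mvd 0.79, Fdps 0.66 and Hmgcs1 0.63. Mvk (0.54, adjusted p 0.000851) and Pmvk (0.39, adjusted p 0.0455) stayed under the fold. All 3 genes of squalene and lanosterol were higher in grown cells: Lss by 1.36 (SE 0.17, adjusted p 5.2e-05), Sqle by 1.13 (SE 0.13, adjusted p 4.8e-05) and Fdft1 by 0.86 (SE 0.16, adjusted p 0.00159). Sqle read 9.54 and 9.84 starved against 10.41 and 11.25 grown in WT, 10.56 and 9.65 against 11.22 and 11.52 in Y721F, 10.28 and 10.23 against 11.27 and 11.39 in 3ABY721, and 10.47 and 10.31 against 11.41 and 11.42 in 3AB. Lss read 8.15 and 8.31 starved against 8.78 and 9.65 grown in WT, 8.83 and 7.42 against 9.82 and 9.76 in Y721F, 8.42 and 8.39 against 9.78 on both arrays in 3ABY721, and 8.48 and 8.61 against 9.95 and 9.98 in 3AB. For both genes the grown arrays lay above the starved arrays in all 4 lines. Lss had not been called after 180 min of CSF-1, where it measured 0.41; these are separate experiments, and that difference was not tested.

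From lanosterol to cholesterol, 5 of 8 were higher in grown cells: Cyp51 by 1.17 (SE 0.20), Hsd17b7 by 0.85 (SE 0.12), Sc5d by 0.85 (SE 0.15), Msmo1 by 0.74 (SE 0.14) and Nsdhl by 0.64 (SE 0.14). Cyp51 read 8.23 and 8.81 starved against 9.04 and 10.26 grown in WT, 9.85 and 8.28 against 10.57 and 10.40 in Y721F, 9.63 and 9.61 against 10.68 and 10.62 in 3ABY721, and 9.67 and 9.86 against 10.86 and 10.85 in 3AB. Hsd17b7 read 8.89 and 9.03 starved against 9.66 and 10.01 grown in WT, 9.41 and 9.07 against 10.16 and 10.15 in 3ABY721, and 9.20 and 9.17 against 10.20 and 10.30 in 3AB, with no overlap within a line, as for Cyp51. Its Y721F arrays overlapped, at 9.71 and 8.88 starved against 10.15 and 9.56 grown. Dhcr7 measured 0.54 (adjusted p 0.0033), under the fold, Tm7sf2 0.44 (adjusted p 0.0784) and Ebp 0.07 (adjusted p 0.702). Ebp, called in none of these comparisons, ranged over 0.87 between its lowest and highest group means, the least of the 17 sterol enzymes.

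Among regulators 0 of 5 were called. Stard4 (0.58, adjusted p 0.00255), Insig1 (0.48, adjusted p 0.0162) and Srebf2 (0.35, adjusted p 0.0158) passed the test but not the fold, while Insig2 measured 0.30 (adjusted p 0.0818) and Scap -0.06. In fatty acid synthesis Fasn was higher in grown cells by 0.74 (SE 0.11, adjusted p 0.000381). Acly (0.40) and Acaca (0.35) had adjusted p values of 0.00307 and 0.0446 with folds under 1.5, and Acss2 measured 0.13. Scd2 was higher by 1.58 (SE 0.26, adjusted p 0.000721), Scd1 by 1.21 (SE 0.27, adjusted p 0.00517) and Elovl6 by 0.64 (SE 0.09, adjusted p 0.000124). Scd1 read 10.46 and 8.51 starved against 8.47 and 10.10 grown in WT, 9.75 and 9.27 against 11.19 and 11.72 in Y721F, 8.82 and 9.41 against 10.24 and 10.48 in 3ABY721, and 7.99 and 8.72 against 10.23 and 10.14 in 3AB. Scd2 read 8.87 and 7.19 against 7.60 and 9.13, 10.09 and 8.66 against 11.77 and 11.88, 7.06 and 6.92 against 9.26 and 8.93, and 6.20 and 6.43 against 8.0 and 7.49 in the same order of lines. Both desaturase genes overlapped in WT and separated in the other lines. Elovl6 read 7.07 and 7.01 against 7.58 and 7.48 in WT and reached 8.39 and 8.06 in grown 3AB. Fads1 (0.02) and Fads2 (-0.04) were not called.

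**Figure D3:**
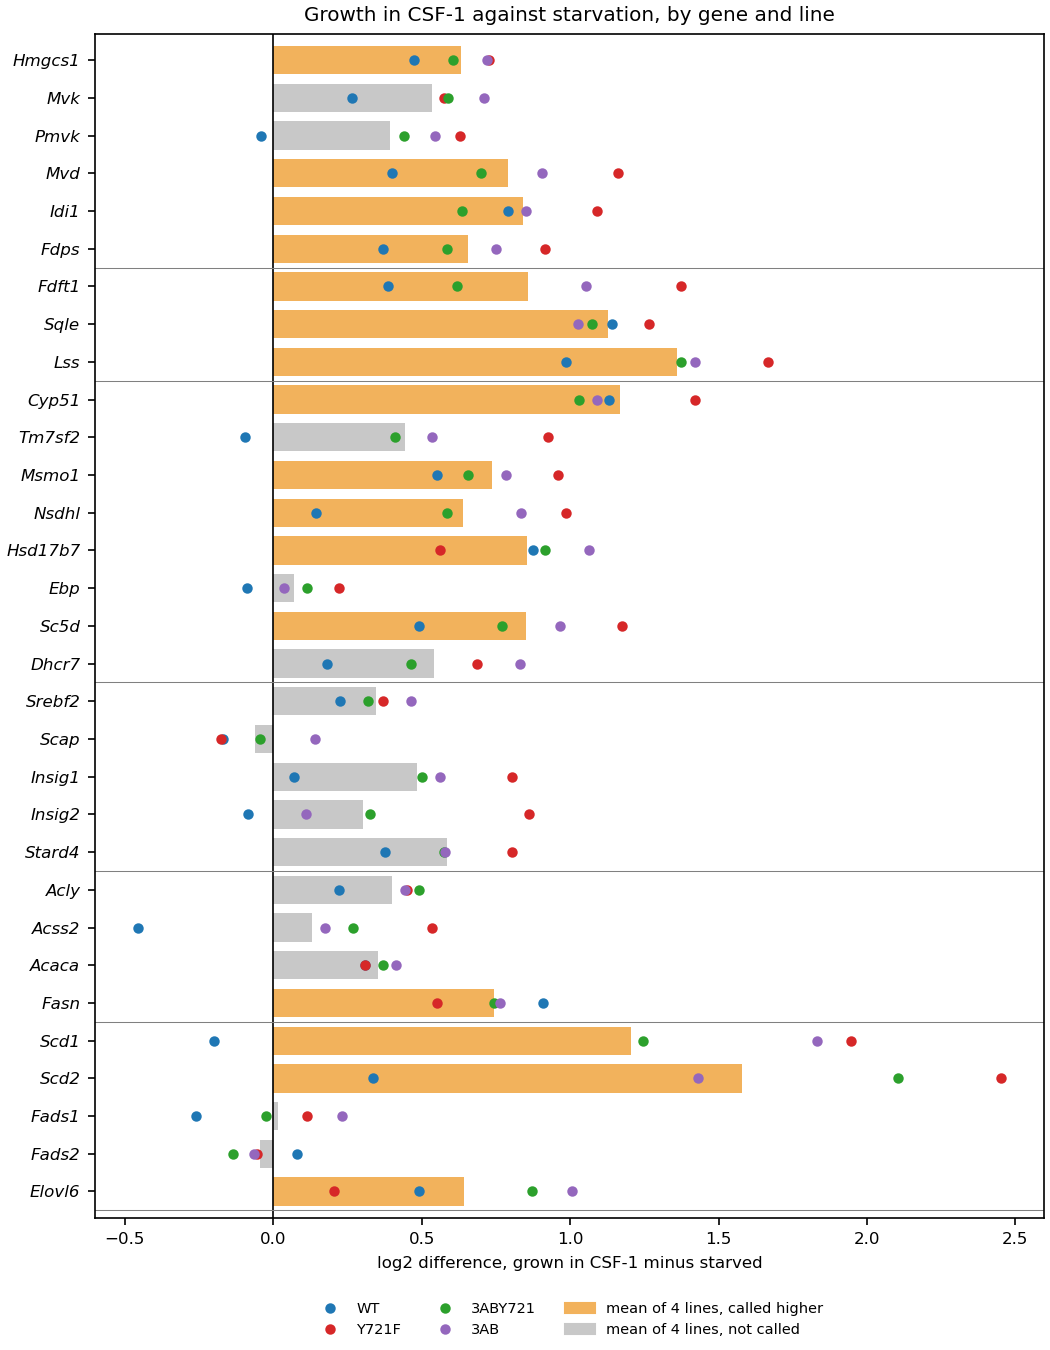
Log2 difference, grown in CSF-1 minus starved (horizontal axis), for the 31 genes in order of role; bars are the mean of 4 lines (orange where called higher, grey where not) and dots the single lines. Lss, Sqle and Cyp51 lie near or above 1 in all 4 lines, while Scd1 and Scd2 spread from -0.20 to 2.45.

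Single lines called fewer genes: 3 of 31 were higher in WT (all genes 2.3%), 8 in Y721F (3.48%), 1 in 3ABY721 (0.742%) and 1 in 3AB (0.431%), and 0 were lower in any line (all genes 3.01%, 1.46%, 0.672% and 0.256%). In WT these were Sqle (1.14), Fasn (0.91) and Hsd17b7 (0.88). In Y721F they were Scd2 (2.45), Scd1 (1.95), Lss (1.67), Fdft1 (1.38), Sqle (1.27), Sc5d (1.18), Mvd (1.16) and Insig2 (0.86). Elovl6 was the gene called in 3ABY721 (0.87) and in 3AB (1.00). The WT count was 0 without either starved array, 1 without grown array I and 4 without grown array II. Of those 4, 1 was higher (Fasn, 1.00) and 3 were lower: Tm7sf2 (-0.85), Acss2 (-0.98) and Fads1 (-0.70). The Y721F count was 17 without starved array I, 0 without starved array II, 5 without grown array I and 3 without grown array II. For 3ABY721 the single call was lost without either starved array or grown array II, and for 3AB in each of the 4 omissions.

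The lines with the fewest calls had the most regular arrays. Both grown arrays lay above both starved arrays for 29 of 31 genes in 3AB and 26 in 3ABY721, against 26.2% and 24.5% of all genes, and for 24 in Y721F and 11 in WT (25.1% and 19.5%). The error of each gene is pooled over the 4 lines, and so takes in the split replicates of grown WT and starved Y721F. When the 8 arrays of 3ABY721 and 3AB were fitted alone, an alternative added after the data were seen, 17 genes were called higher in grown 3ABY721 (all genes 2.32%) and 18 in grown 3AB (1.57%), with 0 lower (1.75% and 0.913%). In that fit Lss was higher by 1.38 (SE 0.10, adjusted p 0.000216) in 3ABY721 and by 1.42 (SE 0.10, adjusted p 0.000398) in 3AB, and Dhcr7 (0.83, adjusted p 0.00523) was called in 3AB and not in 3ABY721; the difference between these growth effects was not called in this fit either.

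The growth effects of the lines were compared directly. Y721F minus WT gave 0 calls by limma (all genes 0.0752% higher and 0.015% lower). An unadjusted p under 0.05 was found for 2527 of all 19938 genes and for 5 of the list. These were Scd1 (2.15, adjusted p 0.307), Scd2 (2.12, adjusted p 0.307), Fdft1 (0.99), Acss2 (0.99) and Insig2 (0.95). Without grown WT array II, 3 were called higher, and without grown Y721F array I, 1 higher and 1 lower. The growth effect in 3AB minus that in 3ABY721 gave 0 calls (all genes 0% higher and 0.00502% lower) and 0 at an unadjusted p under 0.05 (440 of all 19938 genes).

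Lines that differ in Tyr-721 were then compared within a condition. Grown in CSF-1, 5 genes were higher and 1 lower in Y721F than in WT, against 2.94% and 4.94% of all genes. The leading gene was Scd2, which read 7.60 and 9.13 in grown WT and 11.77 and 11.88 in grown Y721F, a difference of 3.46 (SE 0.53, adjusted p 0.000777). Scd1 read 8.47 and 10.10 against 11.19 and 11.72, a difference of 2.17 (SE 0.54, adjusted p 0.0193). Mvd (1.12), Acss2 (1.02) and Mvk (0.70) were also higher. Fasn was lower, at -0.78 (SE 0.23, adjusted p 0.0437), with 9.77 and 9.59 in WT against 9.39 and 8.41 in Y721F; both Y721F arrays lay below both WT arrays. Acaca, the step before it, measured -0.76 (adjusted p 0.0535). Scd2 kept its call whichever array was left out; the count of 6 became 3 without WT array I (1 higher, 2 lower), 15 without WT array II (all higher), 8 without Y721F array I (5 higher, 3 lower) and 1 without Y721F array II (higher). With arrays centred on their medians, 4 were higher and 2 lower, and Acss2 lost its call; Fasn lost its call with quantile normalization.

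Starved, 1 of 31 genes differed between Y721F and WT, Acaca, lower at -0.76 (SE 0.23, adjusted p 0.0386), against 7.66% of all genes lower and 3.47% higher. Its other single-gene probe set measured -0.23, and the call was lost when the probe sets were averaged, with quantile normalization and without either WT array or Y721F array II. The count was 0 without WT array II, 1 higher without WT array I, 2 lower without Y721F array I and 2 higher without Y721F array II; with arrays centred on their medians it was 3, all lower. Scd2 measured 1.35 (SE 0.53, adjusted p 0.0943) and Scd1 0.03 (SE 0.54). Of the 17 sterol enzymes 0 were called, and Ebp and Dhcr7 had an unadjusted p under 0.05, as did 6405 of all 19938 genes.

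In the other pair, 3AB minus 3ABY721, limma called 0 of 31 genes grown (all genes 0.542% higher and 0.642% lower) and 0 starved (0.246% and 0.371%). At an unadjusted p under 0.05 there were 3 grown and 0 starved, against 2251 and 1680 of all 19938 genes. Grown Scd2 read 9.26 and 8.93 in 3ABY721 and 8.0 and 7.49 in 3AB, a difference of -1.35 (95% confidence interval -2.48 to -0.22, adjusted p 0.331). Both 3AB arrays lay below both 3ABY721 arrays, opposite in sign to Y721F minus WT, and in the fit of these 8 arrays alone Scd2 was lower in 3AB (adjusted p 0.00422, all genes 1.49% lower and 1.01% higher). Scd1 measured -0.17 (SE 0.54) and Fasn 0.27 (SE 0.23) in the fit of all 16 arrays.

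**Figure D4:**
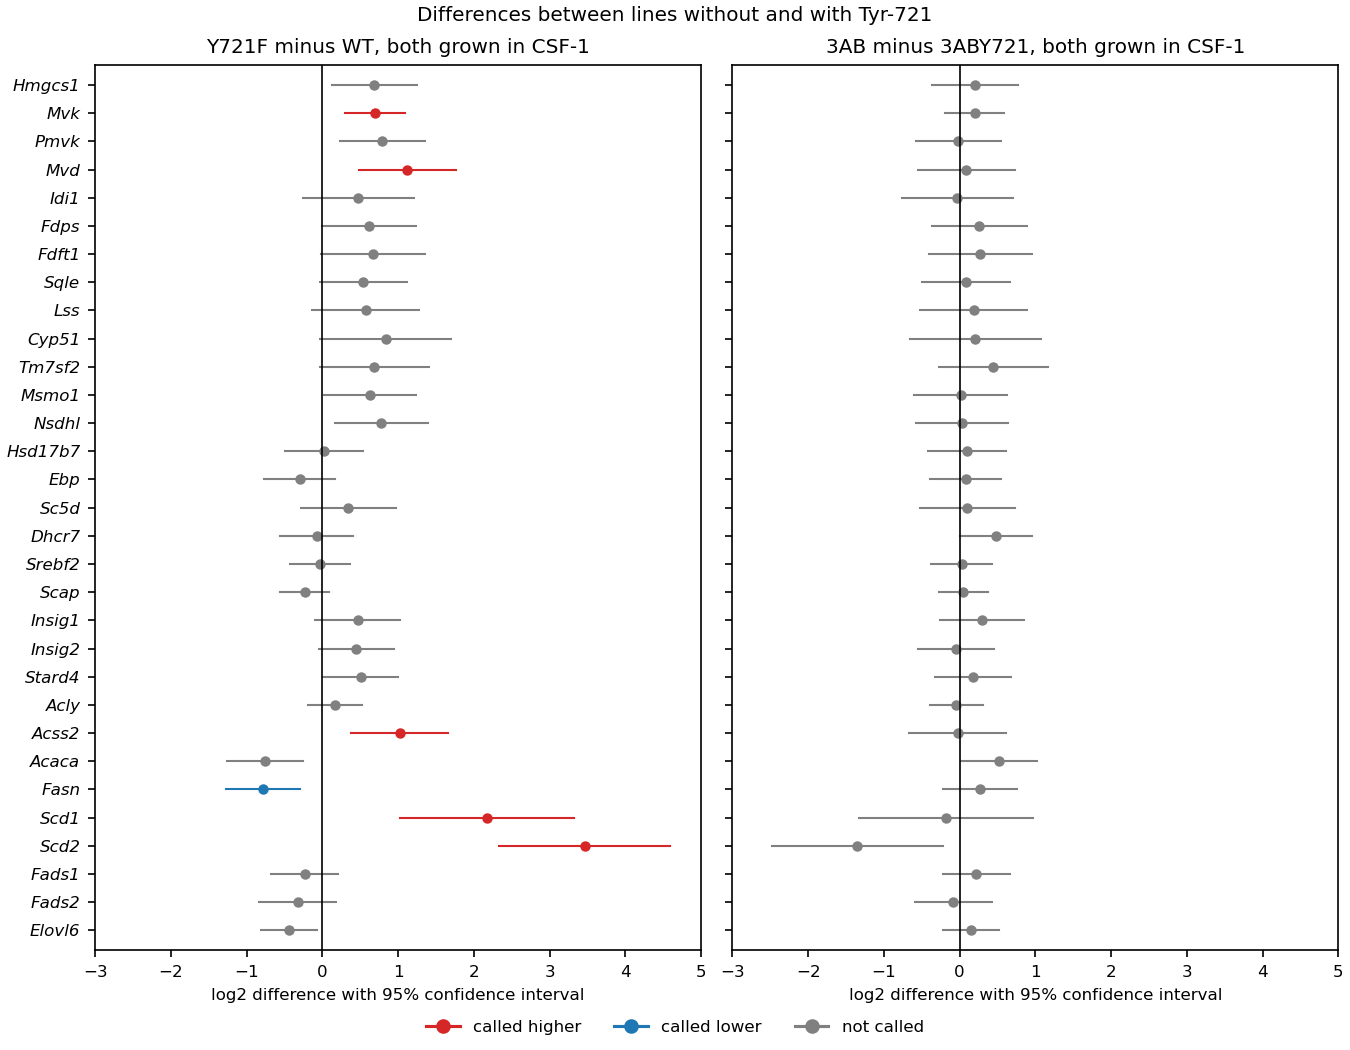
Log2 difference with its 95% confidence interval for the 31 genes, both lines grown in CSF-1: Y721F minus WT on the left and 3AB minus 3ABY721 on the right, with red for called higher, blue for called lower and grey for not called. Scd2 lies at 3.46 on the left and -1.35 on the right, and the sterol enzymes on the right all lie within 0.48 of 0.

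Genes next to these pathways were read from lists that were also chosen with earlier results known. Counts from these lists were not repeated with arrays left out. Of 8 measured LXR targets and efflux genes, 2 fell in the mean at 180 min, where 2.27% of all genes were lower: the sterol exporters Abca1 (-1.42, SE 0.38, adjusted p 0.0388) and Abcg1 (-1.40, SE 0.30, adjusted p 0.0144). In grown cells 4 of the 8 were lower in the mean of 4 lines, against 1.64% of all genes: Mylip (-1.13), which targets lipoprotein receptors for degradation, Abca1 (-1.08), the LXR gene Nr1h3 (-0.79) and Abcg1 (-0.70), with 0 higher. Of 21 other genes of fatty acid synthesis and activation, 4 were higher in grown cells and 1 lower, against 2.58% and 1.64% of all genes: Me1 (1.07), which supplies NADPH, Hsd17b12 (0.89), Slc25a1 (0.62), Lpin1 (0.62) and Dgat1 (-0.64). Me1 was called in each of the 4 lines, with the lowest difference, 0.88, in 3ABY721. Some other called genes had split or overlapping arrays. Abca1 read 9.20 and 7.42 in starved WT and 9.96 and 8.12 in Y721F at 0 min. Lpin1 overlapped in WT, at 7.62 and 7.45 starved against 7.08 and 7.91 grown. Dgat1 read 8.32 and 8.38 starved against 8.28 on both grown arrays in 3AB. At 180 min Hsd17b12 (0.93) and Acsl4 (0.62) rose and Lpin1 (-1.06) fell, against 3.03% higher and 2.27% lower over all genes. Of 12 fatty acid oxidation genes, 9 of SREBP processing, 8 of sterol uptake and 7 other sterol genes, limma called 0 in either of these means. At an unadjusted p under 0.05 there were 6, 2, 1 and 0 at 180 min, against 4255 of all 19938 genes. In grown cells there were 3, 4, 2 and 6, against 6549 of all genes. Srebf1 measured -0.08 at 180 min and 0.22 in grown cells.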

How the data were processed

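Each of the 32 RNA preparations was hybridized to 1 Affymetrix Mouse Gene 1.0 ST array. The authors deposited log2 signals for 35556 probe sets; the unit was read from the values, and the sources used here do not give the background correction, summarization or normalization. Array medians ran from 5.97 to 6.22. Probe sets naming 1 gene (21789) were kept, those naming several (1621) or with no entry (12146) were not, and the brightest stood for a gene. Time course and steady state were fitted apart, 8 groups in each, with limma 3.58.1 (lmFit, eBayes) in R 4.3.3, with 8 residual degrees of freedom and Benjamini-Hochberg adjustment over 19938 genes. The fold of 1.5 and limma are named in the series' design text. Precision is limited by the 2 arrays of each group.

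The members, lists and comparisons were chosen with earlier results of these data known; all measured members are described, and examples are those called or with the largest differences. Replicate numbers were taken to pair arrays within a line's time course, where the 12 correlations of same-numbered arrays' deviations from group means lay between 0.353 and 0.734. In the steady state the 4 lay between 0.0423 and 0.28, and the block was not used beside results. Alternatives covered scaling, dim genes, probe sets, the prior, the threshold, the block and each array left out.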

Additional observations from a re-analysis of the deposited data

How the results depend on the processing

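The counts of called genes among the 31 changed most with the threshold and the estimate of error, and no called difference changed sign in any alternative run. With an unadjusted p under 0.05 and the fold kept, 60 min gave 4 genes in WT and 6 in Y721F, 180 min 9 and 14 (13 higher and 1 lower), 180 against 60 min 1 and 3, and Y721F against WT at 0 min 3. The same threshold gave growth counts of 6 in WT, 19 in Y721F, 13 in 3ABY721 and 18 in 3AB, and Y721F against WT counts of 11 grown (9 higher, 2 lower), 4 starved (1 higher, 3 lower) and 5 for the growth effect, with 1, lower, for grown 3AB against 3ABY721. With the replicate block, 60 min gave 4 in WT and 1 in Y721F, 180 min 9 and 14, Y721F against WT at 0 min 1 (numbers were not taken as pairs between lines), and growth 15 in Y721F, 4 in 3ABY721 and 4 in 3AB; the steady-state numbers were not taken as pairs. The fit of the 3ABY721 and 3AB arrays alone gave growth counts of 17 and 18 and 1 for grown 3AB against 3ABY721. Median centring gave 0 for Y721F at 180 min (12 higher and 7 lower of all 19938 genes) and 3 for starved Y721F against WT (346 higher and 2218 lower of all genes). It moved the median of all genes by 0.105 for grown 3AB against 3ABY721 and by -0.105 for starved Y721F against WT. One fit over 32 arrays gave 6 for Y721F at 180 min, and a gene's mean over its probe sets 0 for starved Y721F against WT. Quantile normalization gave 4 for growth in Y721F (472 higher and 450 lower of all genes). A trended prior gave 3 for growth in 3ABY721, 2 in 3AB and 2 for starved Y721F against WT. With 1 array left out, counts ranged from 0 to 2 for WT at 60 min, 0 to 3 for WT and 0 to 5 for Y721F at 180 min, 0 to 4 for growth in WT (the 4 being 1 higher and 3 lower), 0 to 17 in Y721F, 0 to 1 in 3ABY721 and 0 to 0 in 3AB, 1 to 15 for grown and 0 to 2 for starved Y721F against WT, and 0 to 3 for its growth effect. Shares of all genes stand above for the block at 60 and 180 min and for the fit of 3ABY721 and 3AB alone. Where no count over all genes is given for a setting, its counts show only how calls among the 31 moved. The cause of these shifts was not tested.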

Other observations

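Both experiments hold CSF-1-deprived cells of WT and Y721F, as 0 min arrays of the time course and as starved arrays of the steady state, and the sterol enzymes did not read alike. In WT 15 of 17 had a higher mean on the starved arrays than on the 0 min arrays, by a median of 0.70 on the log2 scale, where 57.8% of all genes were higher with a median of 0.065. Both starved arrays lay above both 0 min arrays for 13 of the 17, against 35.5% of all genes. In Y721F 14 of 17 were higher, by a median of 0.65 (all genes 59.3% and 0.115), and 6 of 17 lay above without overlap (all genes 42.8%). Msmo1 had the largest gap in both lines, 2.01 in WT (9.46 and 9.61 at 0 min, 11.44 and 11.65 starved) and 2.02 in Y721F, while Fdft1 measured -0.28 and -0.49. The experiment and the state of the cells cannot be told apart here, so no test was run, and levels were not compared between the experiments in the results.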
